A study of Homo sapiens with 21 samples.

Results

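The genes described here are the amino acid transporters of 7 solute carrier (SLC) families, SLC1, SLC3, SLC6, SLC7, SLC36, SLC38 and SLC43. A rule on gene symbol and protein-coding biotype gave 59 genes of 58735 in the count table. These families, and the gene lists used below, were chosen with earlier results of these data known. Their mRNA was measured by poly(dT)-selected RNA-seq in cells labelled HepG2, an established human liver cancer line, treated for 6 h in serum-free DMEM with coumarin, a plant-derived benzopyrone, at 0.001, 0.01, 0.1, 1, 10 or 100 µM. Control cells (0 µM) were kept in the same medium without coumarin, and each of the 7 groups had 3 libraries, described only as triplicates, so the p-values measure the spread between these libraries. Total counts were 27984517 to 43704155 per library. Of 20 genes fixed as hepatocyte markers, 1 (CPS1, the first enzyme of the urea cycle) reached the level needed for testing, and 5 genes, among them albumin (ALB) and the fibrinogen chains FGA and FGB, had no count in any of the 21 libraries. On the library total, that list summed to 2799 to 2936 CPM at 0 µM and 2821 to 2987 CPM at 100 µM. CPS1 made up nearly all of that sum, with a mean of 2853 CPM (counts scaled to library size by TMM) at 0 µM and 2868 CPM at 100 µM. It had 2088529 counts over all 21 libraries, and the next marker, TDO2, had 66. The sum therefore does not describe the other hepatocyte markers. The cells are called by their label below.

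Amino acid transporters move their substrates across the plasma or lysosomal membrane, either by coupling to sodium or protons or by exchanging one amino acid for another. Several work as pairs: SLC3A2 (4F2hc, CD98) is the heavy chain that carries light chains such as SLC7A5 (LAT1) and SLC7A11 (xCT) to the cell surface. When amino acids are short or proteins misfold, the kinase branch that phosphorylates eIF2α raises the translation of the transcription factor ATF4, and many transporter genes are among its known targets. The DNA element bound by ATF4 with a C/EBP partner is a composite site, searched here as TGATGNAAN.

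The composite letters were searched on both strands of RefSeq promoter windows (GRCh38.p14, 300 bases each, 250 before and 50 after an annotated start). Of all 35116 windows, 1268 (3.61%) held a match. The table had a window for 26 of the 33 transporter genes with enough counts to be tested, and 6 of those 26 held the letters. A gene can have several windows and was counted if any of them matched, so counts of genes are not shares of windows. The letters were present in 4 of the 8 genes that rose at 100 µM (14 windows). They were present in 2 of 18 genes with a window that were tested and not called (33 windows). In the whole table they were present in 277 of 10394 tested genes with a window (2.66%, 15108 windows). The 6 sites are printed because they are the only ones found in the windows of the 26 transporter genes. Each is given 5′ to 3′ on the strand of its gene with the matched letters in capitals, and the matches in SLC1A4 and SLC3A2 lie on the opposite strand.
SLC1A4: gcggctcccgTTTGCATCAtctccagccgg
SLC1A5: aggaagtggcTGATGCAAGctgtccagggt
SLC3A2: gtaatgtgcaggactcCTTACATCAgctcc
SLC7A1: ggcgcactgcTGATGAAACctggcgccgga
SLC1A3: aggaaatgacTGATGCAAAgcagggttaac
SLC38A1: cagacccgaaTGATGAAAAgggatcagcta
The first 4 belong to genes that rose at 100 µM, and the last 2 to genes that were not called. They lie at chr2:64989381-64989410 (+), chr19:46784892-46784921 (-), chr11:62881719-62881748 (+), chr13:29595662-29595691 (-), chr5:36596358-36596387 (+) and chr12:46266501-46266530 (-). In GENCODE 29 the SLC3A2 and SLC7A1 matches fall in an exon, in untranslated sequence. The SLC1A4, SLC1A5 and SLC38A1 matches fall in introns of longer transcripts, and the SLC1A3 match lies outside the annotated gene. A match describes these letters only.

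At 0 µM the large neutral amino acid exchanger dominated. Levels between genes are compared as the authors' FPKM, which are per gene length. SLC7A5 stood at 408 ± 12 FPKM (SD, n = 3), 38.1% of the sum over all 59 genes. SLC3A2, its heavy chain, followed at 146.5 ± 5.0 FPKM, and SLC38A2 (SNAT2), a sodium-coupled carrier of small neutral amino acids, at 144 ± 7.4 FPKM. The libraries of SLC3A2 and SLC38A2 overlapped, so their order is not resolved. SLC1A5 (ASCT2), the exchanger of glutamine and other neutral amino acids, stood at 71.1 ± 3.3 FPKM, and SLC38A1 (SNAT1), a glutamine carrier, at 60.7 ± 2.5 FPKM. These 5 genes held 77.5% of the summed FPKM.

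Below them, SLC43A3, a purine nucleobase carrier, stood at 54.8 ± 1.1 FPKM and SLC7A1 (CAT1), an arginine and lysine carrier, at 28.3 ± 0.51 FPKM. The creatine carrier SLC6A8 (23.6 ± 1.6 FPKM) and the taurine carrier SLC6A6 (22.7 ± 0.14 FPKM) overlapped with each other, and SLC7A11, the cystine exchanger's light chain, lay under both at 20.05 ± 1.2 FPKM. In all, 25 of the 59 genes reached 1 FPKM at 0 µM. By family, SLC7 held 44.7 ± 0.56% of the summed FPKM, SLC38 21.4 ± 1.2%, SLC3 13.7 ± 0.30%, SLC1 8.13 ± 0.21%, SLC43 5.67 ± 0.069%, SLC6 5.63 ± 0.14% and SLC36 0.799 ± 0.034%.

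**Figure D1:**
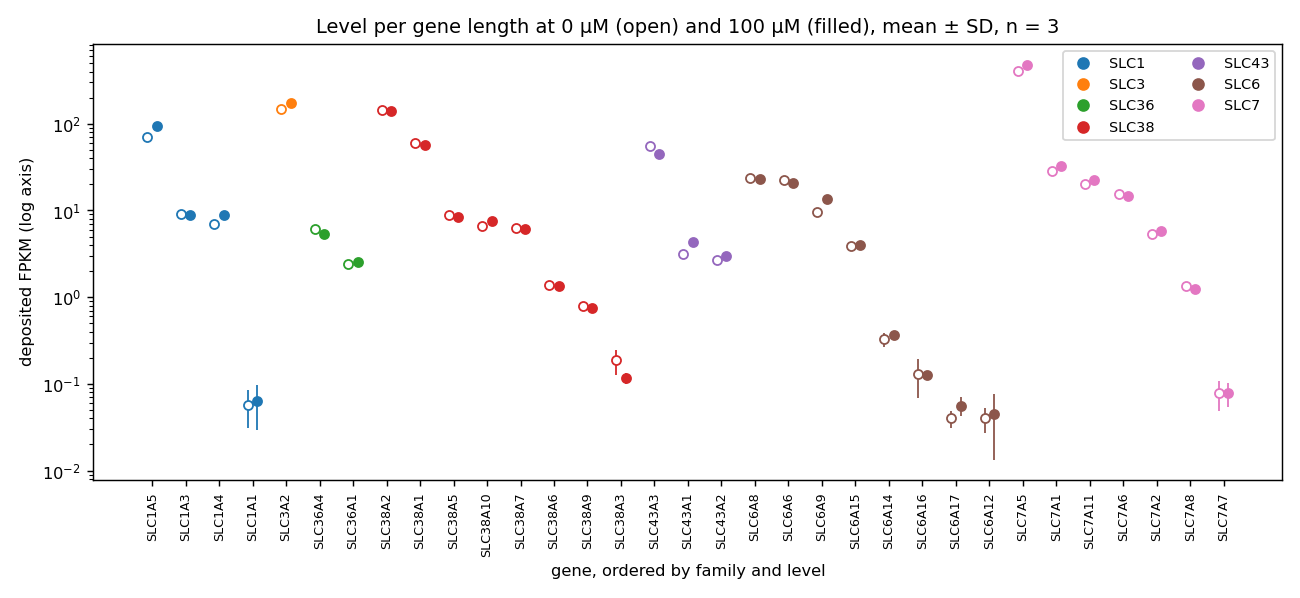
Deposited FPKM (log axis) of the 33 tested transporter genes, grouped by family, at 0 µM (open circles) and 100 µM (filled circles). Circles are means of 3 libraries and bars are SD. SLC7A5 lies above every other gene at both doses, 408 FPKM at 0 µM, and most filled circles lie close to the open ones.

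The other 26 genes were too low to be tested. No library had a count for SLC7A14, SLC6A2, SLC1A6, SLC7A10, SLC7A13, SLC7A3, SLC6A5 or SLC38A8, and with 3 counts as the limit that a count of 0 allows, each could have been present at up to 0.0686 to 0.107 CPM per library. SLC38A4 (SNAT4), a carrier of liver, had 101 counts summed over all 21 libraries. Of the rest, SLC1A2, SLC1A7, SLC3A1, SLC36A2, SLC36A3, SLC38A11, SLC6A11, SLC6A13, SLC6A18, SLC6A19, SLC6A20, SLC6A3, SLC6A4, SLC6A7, SLC7A4 and SLC7A9 had at most 25 each. The astrocyte glutamate carrier SLC1A2, the monoamine carriers SLC6A2, SLC6A3 and SLC6A4 and the kidney exchanger pair SLC3A1 and SLC7A9 are in this group.

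At 100 µM against 0 µM, 8 transporter genes rose and 2 fell (edgeR quasi-likelihood test, Benjamini-Hochberg adjusted over 16196 genes). In the background of all tested genes, 3.66% were called higher and 4.8% lower, against 24.2% and 6.06% of the 33 tested transporters. The median log2 fold change was 0.05 over the 33 genes and 0.00 over all tested genes. The 8 that rose were carriers of glycine (SLC6A9), of neutral amino acids (SLC1A5, SLC1A4, SLC7A5, SLC43A1), of cationic amino acids (SLC7A1), the heavy chain SLC3A2, and the little-studied SLC38A10. The 2 that fell, SLC43A3 and SLC6A6, carry nucleobases and taurine. The changes were small, 0.12 to 0.49 on the log2 scale in size. In bulk RNA, fewer cells of a type and less RNA per cell cannot be told apart. Of 10 tested mesenchymal or stromal markers, 3 fell (PDGFRB, FAP and COL3A1), 0 rose and 7 were not called. The median log2 fold change of the tested markers was -0.04. Among those not called, COL1A1 had 0.20 (adjusted p = 0.051) and VIM had 0.00. The mesenchymal or stromal list summed, on the library total, to 1393 to 1436 CPM at 0 µM and 1324 to 1381 CPM at 100 µM. COL3A1 was its largest member, at a mean of 952 CPM at 0 µM and 885 CPM at 100 µM. The biliary epithelial markers summed on the library total to 1167 to 1282 CPM at 0 µM and 1146 to 1218 CPM at 100 µM. KRT7 made up most of that sum (mean 1188 CPM at 0 µM and 1140 CPM at 100 µM), and EPCAM had 0 counts in every library. The part of these markers in the transporter changes was not tested.

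**Figure D2:**
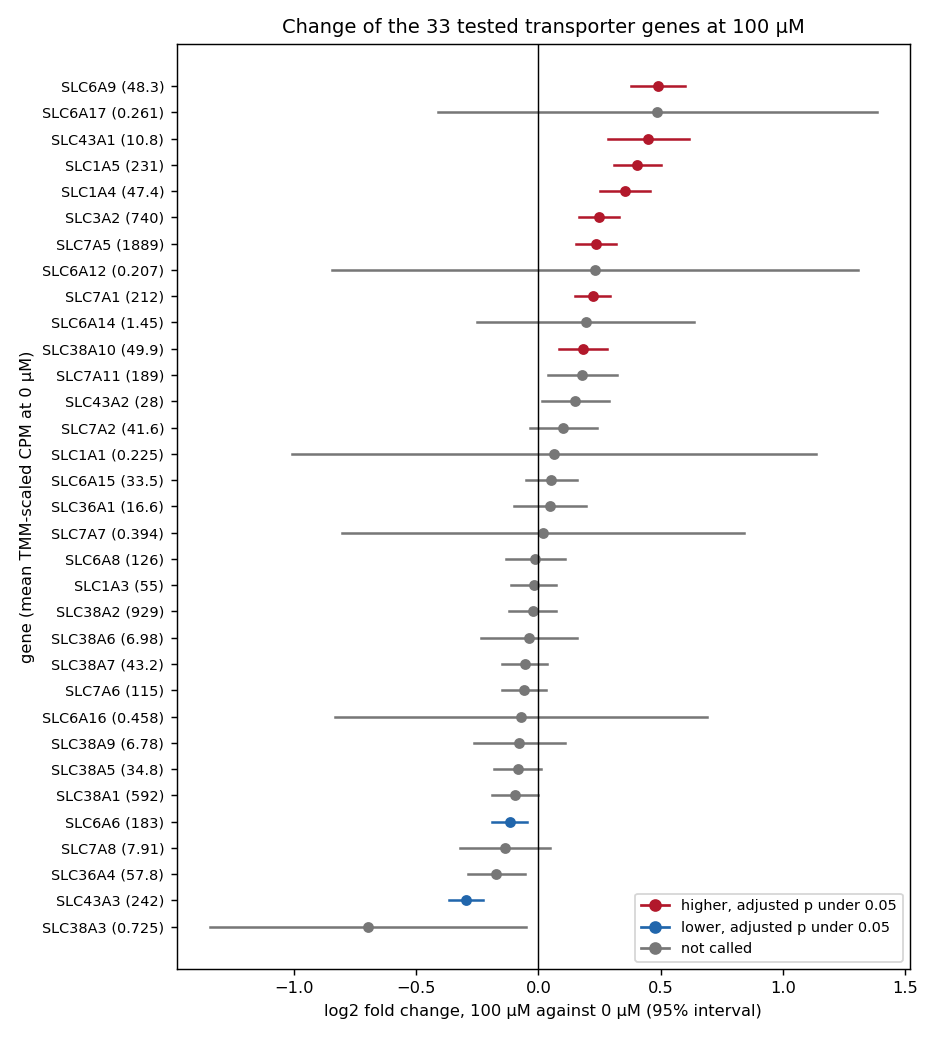
Log2 fold change at 100 µM against 0 µM with its 95% interval for the 33 tested transporter genes, with each gene's mean TMM-scaled CPM at 0 µM in brackets. Red marks the 8 genes called higher, blue the 2 called lower and grey the 23 not called. Genes near or below 1 CPM have the wide intervals.

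The glycine carrier SLC6A9 (GLYT1; chr1:43991500-44031467, minus strand, as all coordinates on GRCh38) changed most among the called genes. Its level was 47.8, 44.8 and 52.3 CPM in the 3 control libraries and 69.8, 64.3 and 69.6 CPM at 100 µM. All 3 treated libraries lay above all 18 others, whose highest was 53.8 CPM. The log2 fold change was 0.49 (SE 0.054, adjusted p = 3.3e-07), a rise of 40.4%. Genes on the other strand overlap it, with AL139220.2 at 13.1% and CCDC24 at 5.68% of its counts, and whether the counting used strand is not given in the sources used here.

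Among the neutral amino acid exchangers of the SLC1 family, SLC1A5 (chr19:46774883-46788594, minus strand) measured 226, 224 and 243 CPM in controls and 316, 296 and 306 CPM at 100 µM. SLC1A4 (ASCT1; chr2:64988477-65023865, plus strand), which exchanges alanine, serine and cysteine, measured 44.5, 46.9 and 50.7 CPM in controls and 60.7, 58.4 and 62.7 CPM at 100 µM. For both genes the 100 µM libraries lay above all 18 others. The log2 fold changes were 0.41 (SE 0.047, adjusted p = 1.0e-06) for SLC1A5 and 0.35 (SE 0.050, adjusted p = 1.9e-05) for SLC1A4. The glutamate carrier SLC1A3 (EAAT1) of the same family had a log2 fold change of -0.02 (95% interval -0.11 to 0.07).

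The LAT1 heterodimer is encoded by 2 genes on different chromosomes. SLC7A5 (chr16:87830023-87869488, minus strand) measured 1876, 1844 and 1946.5 CPM in controls and 2284, 2181 and 2215 CPM at 100 µM. SLC3A2 (chr11:62856102-62888875, plus strand) measured 737, 719 and 764 CPM in controls and 897, 873 and 866 CPM at 100 µM. The 100 µM libraries were again above all 18 others for both. Log2 fold changes were 0.24 (SE 0.040, adjusted p = 2.5e-04) for SLC7A5 and 0.25 (SE 0.040, adjusted p = 1.5e-04) for SLC3A2. The ratio of SLC7A5 to SLC3A2 in FPKM was 2.79 ± 0.012 at 0 µM and 2.77 ± 0.036 at 100 µM, with overlapping libraries. The near-identical copy SLC7A5P1 had 2830 counts over all libraries.

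The other light chains were SLC7A11, SLC7A6, SLC7A7 and SLC7A8. SLC7A11 (chr4:138164097-138242349, minus strand) measured 181, 203 and 182 CPM in controls and 211, 215 and 215 CPM at 100 µM. Its 100 µM libraries lay above all 18 others, yet the log2 fold change of 0.18 (SE 0.069) had an adjusted p of 0.10. It was called over the 7 groups (adjusted p = 0.012) and in the slope over dose (adjusted p = 1.1e-03). The call over the 7 groups was lost whichever single 100 µM library was left out, with limma and with a robust prior in edgeR. At 0.001 µM SLC7A11 stood at -0.19 on the log2 scale (adjusted p = 0.56). The y+LAT2 exchanger SLC7A6 had a log2 fold change of -0.06 (95% interval -0.15 to 0.03) and LAT2, SLC7A8, of -0.14 (95% interval -0.32 to 0.05). SLC7A7 stood at 0.39 CPM in controls, where the interval was -0.80 to 0.84.

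The cationic amino acid carrier SLC7A1 (chr13:29509410-29595688, minus strand) measured 213, 209 and 215 CPM in controls and 246, 244 and 253 CPM at 100 µM, without overlap with any of the 18 other libraries. The log2 fold change was 0.22 (SE 0.035, adjusted p = 8.7e-05). SLC7A2 (CAT2), which carries the same substrates, had 0.10 (95% interval -0.04 to 0.24).

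In the SLC43 family, neighbouring genes moved in opposite directions. SLC43A1 (LAT3; chr11:57484534-57515786, minus strand), a carrier of branched-chain amino acids, measured 10.5, 10.5 and 11.4 CPM in controls and 14.4, 13.6 and 16.2 CPM at 100 µM. SLC43A3 (chr11:57406954-57427580, minus strand) measured 236, 242 and 247 CPM in controls and 199.9, 194 and 197 CPM at 100 µM. The 100 µM libraries lay above all 18 others for SLC43A1 and below all 18 for SLC43A3. Log2 fold changes were 0.45 (SE 0.081, adjusted p = 5.6e-04) and -0.30 (SE 0.033, adjusted p = 5.2e-07). The genes are 56954 bases apart with 1 coding gene between them. Their FPKM ratio, SLC43A1 over SLC43A3, was 0.0572 ± 0.0018 at 0 µM and 0.0959 ± 0.0083 at 100 µM. The third gene of the family, SLC43A2 (LAT4), had 0.15 (adjusted p = 0.17).

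Of the SLC38 family, 1 of 8 tested genes was called. SLC38A10 (chr17:81245000-81295547) measured 48.1, 49.9 and 51.9 CPM in controls and 59.7, 55.9 and 54.5 CPM at 100 µM. It rose by 0.18 on the log2 scale (SE 0.048, adjusted p = 0.017). Its lowest treated library was close to the highest of the 18 others, 54.2 CPM, and the call was lost without control replicate 1 (adjusted p = 0.094), control replicate 2 (0.058) or 100 µM replicate 1 (0.12). SLC38A2, a known target of amino acid limitation, measured 926, 981 and 879.5 CPM in controls and 884, 945 and 914 CPM at 100 µM. These overlapped, and its log2 fold change was -0.02 (95% interval -0.12 to 0.07). The ratio of SLC1A5 to SLC38A2 in FPKM was 0.494 ± 0.049 at 0 µM and 0.664 ± 0.044 at 100 µM.

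The taurine carrier SLC6A6 (TauT; chr3:14402576-14489349) measured 180.45, 184 and 184 CPM in controls and 168, 169 and 168 CPM at 100 µM, below all 18 others. Its log2 fold change was -0.12 (SE 0.035, adjusted p = 0.033), and the call was lost whichever single control or 100 µM library was left out (adjusted p 0.074 to 0.12). The creatine carrier SLC6A8 had -0.01 (95% interval -0.13 to 0.11). SLC36A4 (PAT4), a carrier of proline and tryptophan, measured 56.5, 62.2 and 54.7 CPM in controls and 49.97, 54.6 and 49.2 CPM at 100 µM, with a log2 fold change of -0.17 and an adjusted p of 0.058. It was called lower by DESeq2, by edgeR with a robust prior or with no filter on low counts, and without control replicate 3 or 100 µM replicate 2.

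**Figure D3:**
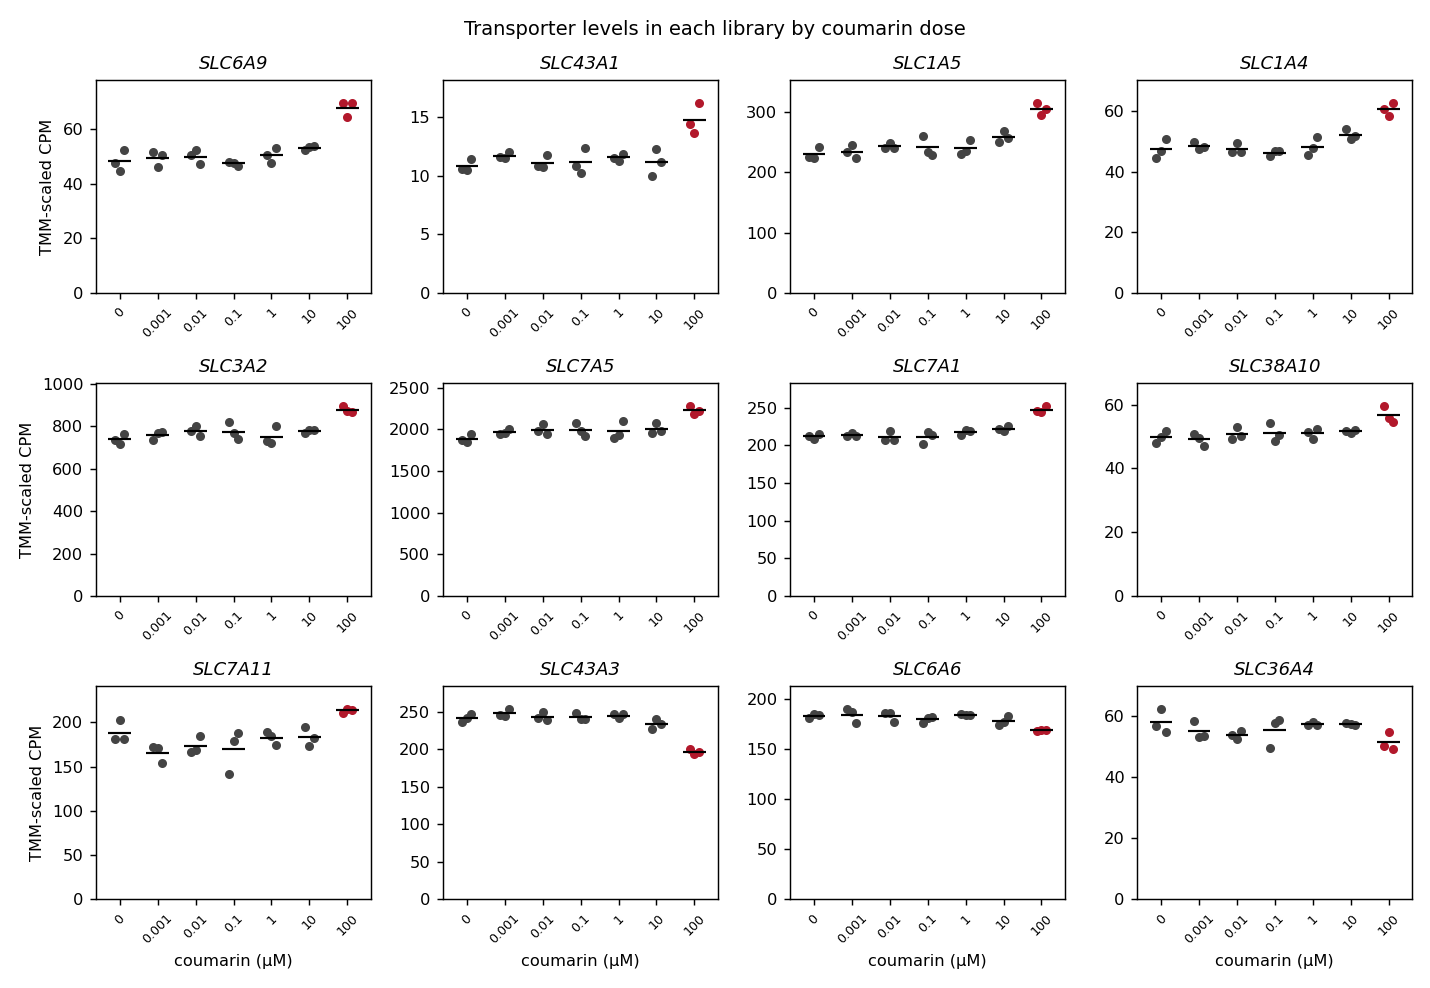
TMM-scaled CPM in each of the 21 libraries for 12 transporter genes, by coumarin dose. Points are libraries, red at 100 µM, and horizontal lines are group means of 3. SLC6A9 at 100 µM lies between 64.3 and 69.8 CPM, above every other library, and SLC43A3 lies between 194 and 199.9 CPM, below every other library. SLC36A4 is shown because its call depends on the fit.

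Counting only order, all 3 libraries at 100 µM lay above all 18 others for 9 transporters and below for 2, against 2.41% and 3.31% of all tested genes. Against the 3 controls alone the counts were 11 and 8, with a background of 13.1% and 13.9%.

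At lower doses no transporter was called. At 10 µM the count was 0 (background 0.327%), with a lowest adjusted p of 0.12 for SLC1A5. At an unadjusted p under 0.05 there were 5 (SLC1A5, SLC6A9, SLC1A4, SLC7A5 and SLC1A3). These were 15.2% of the 33 tested transporters, against 12.2% of all genes. SLC1A3 was lower (log2 fold change -0.10) and the others were higher. On adjusted p, DESeq2 also called 0 at 10 µM. The log2 fold changes at 10 µM were 0.16 for SLC1A5, 0.14 for SLC6A9 and 0.14 for SLC1A4. From 0.001 to 1 µM, edgeR and DESeq2 called 0 transporters, against 0.0% of all genes at 0.001 and 1 µM and 0.00617% at 0.01 and 0.1 µM. Unadjusted counts there were 2, 1, 3 and 0 with rising dose, against 8.42%, 8.81%, 6.27% and 3.91% of all genes.

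**Figure D4:**
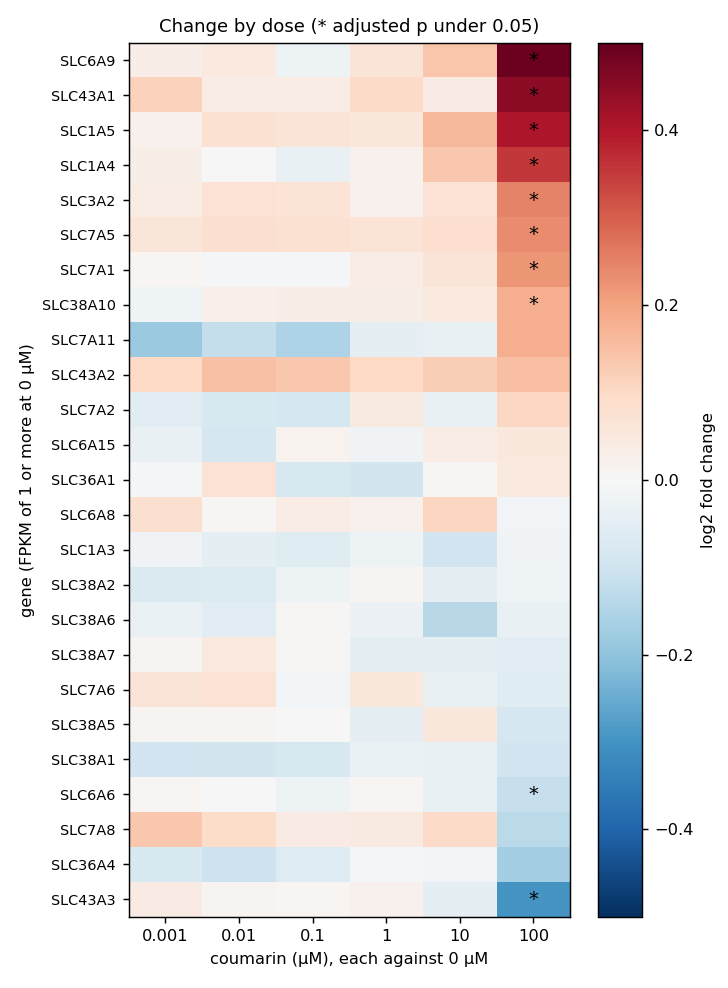
Log2 fold change against 0 µM at each of the 6 doses for the 25 transporter genes at 1 FPKM or more, ordered by the change at 100 µM. A star marks an adjusted p under 0.05, and stars appear in the 100 µM column alone.

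Against 10 µM, the 100 µM libraries had 7 transporters higher (SLC6A9, SLC43A1, SLC1A5, SLC1A4, SLC3A2, SLC7A5 and SLC7A1) and 1 lower (SLC43A3), with a background of 2.07% and 2.49%. Without 100 µM replicate 3 the 7 became 4, as SLC1A4, SLC7A1 and SLC7A5 lost their calls, and without 10 µM replicate 1 or 100 µM replicate 1 they became 5, without SLC3A2 and SLC7A5. The largest was SLC43A1 at 0.41 (SE 0.081, adjusted p = 2.9e-03), followed by SLC6A9 at 0.35 (SE 0.053, adjusted p = 1.2e-04). This comparison shares its 100 µM libraries with the one against control. Over the 7 groups, 9 transporters were called (background 4.35%): those 8 and SLC7A11. Across the 6 treated groups, a linear slope on log10 dose was called upward for 9 (background 1.94%) and downward for 2 (background 2.51%). These 11 slopes became 7 without replicate 1 at 0.001, 0.01 or 100 µM, and 8 with limma on FPKM, which lost SLC38A10, SLC3A2, SLC43A1 and SLC7A5 and added SLC7A6. As a fitted average per 10-fold step in dose, SLC6A9 rose by 0.08 (SE 0.0090) on the log2 scale and SLC43A3 fell by 0.05 (SE 0.0056). The steps were uneven, with the largest from 10 to 100 µM. SLC6A9 libraries measured 46.3 to 53.0 CPM from 0.001 to 1 µM, 52.3 to 53.8 CPM at 10 µM and 64.3 to 69.8 CPM at 100 µM. SLC43A3 libraries measured 239 to 254, 227 to 240 and 194 to 199.9 CPM at these doses.

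Summed over the 59 genes, the FPKM were 1071 ± 13 at 0 µM and 1186 ± 16 at 100 µM, with no overlap between the groups. The SLC1 share went from 8.13 ± 0.21% to 9.41 ± 0.19%, and the SLC38 share went from 21.4 ± 1.2% to 18.7 ± 0.70%. The summed FPKM of SLC38 itself was 229.2 ± 9.8 at 0 µM and 222.3 ± 5.4 at 100 µM. The SLC43 share went from 5.67 ± 0.069% to 4.37 ± 0.048%, and its summed FPKM from 60.69 ± 1.3 to 51.82 ± 1.1. Shares sum to the whole, so they are not independent, and neither shares nor sums were tested.

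Of 18 regulators and targets around ATF4, 12 rose, 1 fell (EIF2AK3) and 5 were not called at 100 µM, against a background of 3.66% higher and 4.8% lower. Their median log2 fold change was 0.65. CHAC1, a glutathione-degrading enzyme, had 2.88 (SE 0.089, adjusted p = 4.1e-19), and ATF3, SESN2 and TRIB3 had 1.78, 1.43 and 0.80. ATF4 itself had 0.34 (adjusted p = 2.4e-06). Of 21 tested amino acid carriers outside these families, 1 rose (SLC25A38, a mitochondrial glycine carrier) and 3 fell (SLC25A13, SFXN1 and SLC17A5), with a median of -0.01. Of 31 tested genes of lysosomal amino acid sensing, 1 rose (ITFG2) and the median was 0.01. The single rise in each of the carrier and sensing lists is close to the background share of 3.66%. The 3 falls among the 21 carriers are a larger share than the 4.8% of all tested genes called lower, and their number was not tested.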

How the data were processed

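RNA of cells labelled HepG2 was measured by RNA-seq in 21 libraries (3 at each of 7 coumarin doses, 6 h). The deposited counts are whole numbers per gene with no normalization. The authors' FPKM equal counts over gene length and a library constant, within a relative deviation of 1.07e-06. The submitters' processing notes list HISAT2, DESeq2 and GRCh38 but give them no role. How reads were counted, whether by strand, and on which annotation is not given in the sources used here.

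Genes passing filterByExpr (16196, of which 33 of the 59 transporters) were scaled by TMM and fitted in edgeR 4.0.16 (R 4.3.3) with 1 model of 7 groups (14 residual degrees of freedom). The call threshold was a Benjamini-Hochberg adjusted p of 0.05. Depth was 27984517 to 43704155 counts per library. In simulated counts for 100 µM against 0 µM (15954 genes), log2 changes of 0.2, 0.3, 0.5 and 1 were set in 50 genes each. They were recovered for 26%, 74%, 92% and 100% of these, with 11 false calls, so changes near 0.2 were often missed there. The changed genes were drawn from those above a level limit, and all others were unchanged. The rates need not hold for the real comparison, with 1371 genes called, or for transporters near or below 1 CPM. Standard errors and intervals of fold changes come from the fitted model and include the spread between libraries, and the floors for counts of 0 cover counting error only.

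The members and lists were chosen with earlier results of these data known. The planned test names glmQLFit without options, and its defaults are reported. After its results had been seen, 7 combinations of edgeR's fit options were run, which gave 1348 to 1390 genes called at 100 µM (1371 with the defaults). A version with the robust prior, which gave 1390 and equalled an earlier count for this series, was for a time used as the main fit and then set back. With it SLC36A4 was also called lower at 100 µM, SLC7A6 also had a slope and SLC7A11 lost its call over the 7 groups. Likewise, 6 promoter motifs were looked at, and the planned one is described. Genes described by library are the 6 marker transporters and all called at 100 µM, 10 µM or over the 7 groups, and SLC38A2 and SLC36A4 were added after their values were seen. Sequences are from RefSeq (GRCh38.p14). A planned comparison of protein sequences was not made, and protein sequences are not used here. Alternatives were DESeq2 1.42.0, its size factors, limma 3.58.1 on log2(FPKM + 1) and log2(FPKM + 0.1), other filters, a gene length offset, fits of the 2 groups alone, a replicate block and leaving out each library. A few genes and the results that need them are not reported here.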

Additional observations from a re-analysis of the deposited data

How the results depend on the processing

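Of the 11 transporters described as called or as markers, 8 had the same call at 100 µM against 0 µM in every alternative run; SLC38A10, SLC6A6 and SLC7A11 did not, and no direction reversed. The 8 rises became 7 to 8 when single libraries were left out. The 2 falls became 1 with the gene length offset and 1 with only the libraries of the 2 groups compared, in both cases without SLC6A6, and 1 to 2 with single libraries left out. With no filter on low counts, and without control replicate 3 or 100 µM replicate 2, the count stayed at 2 because SLC36A4 took the place of SLC6A6. SLC7A11 passed at 100 µM with no filter on low counts (adjusted p = 2.2e-03), with the gene length offset (0.017) and with only the 2 groups (0.012). With no filter on low counts, 1 transporter was called at 10 µM (SLC1A5) and 1 at 0.001 to 1 µM (SLC7A11). Against 10 µM, 6 were higher (SLC7A5 lost) and 2 lower (SLC38A5 added) with limma at either pseudocount, and 2 were lower with the gene length offset or only the 2 groups (SLC36A4 added). The 7 higher against 10 µM became 4 to 7 with single libraries left out, 4 without 100 µM replicate 3, which lost SLC1A4, SLC7A1 and SLC7A5. SLC7A5 was also lost without 10 µM replicate 1 or 3 or 100 µM replicate 1. The 1 lower stayed at 1 for each library left out. With single libraries left out, calls over the 7 groups ranged from 6 to 10 and slopes from 7 to 12. DESeq2 gave 11 calls over the 7 groups, and limma 8 or 7 by pseudocount, without SLC7A5 and SLC7A11. The slopes fell to 7 without replicate 1 at 0.001, 0.01 or 100 µM. At 10 µM and at 0.001 to 1 µM the count stayed at 0 for every library left out. The cause of these shifts was not tested. Replicate numbers did not pair the libraries: same-numbered libraries at 0 and 100 µM correlated at -0.041, 0.004 and -0.017. With the replicate block 8 rose and 2 fell at 100 µM, 9 were called over the 7 groups and 10 had a slope. The robust prior, added after seeing the data, gave 8 and 3, 8 and 12. Transporters under 1 CPM have intervals too wide to show changes of the size seen in the others.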
